A study of Gossypium hirsutum with 89 samples.

Results

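Cotton fibres are single cells of the seed coat that first elongate behind a thin, extensible primary wall and then lay down a thick secondary wall made almost wholly of cellulose. Elongation draws on expansins, which loosen the wall, on pectin-degrading enzymes and on very long chain fatty acids, whereas wall thickening draws on a dedicated set of cellulose synthases, chitinase-like proteins and fasciclin-like arabinogalactan proteins under NAC regulators. Fibre at 19 days post anthesis (dpa) was compared among 5 genotypes of Gossypium hirsutum, upland cotton, by hybridisation to Affymetrix Cotton Genome arrays. The samples are the 15 arrays whose titles give 19 dpa, 3 biological replicates for each genotype, of 89 arrays in the whole series.

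By the class the labels give, JKC 725 and 777 have superior fibre traits, while those of JKC 703, 783 and 737 are inferior. All plants stood in an open field, flowers were tagged at anthesis, and fibre without the ovule was taken at 6, 9, 12, 19 and 25 dpa, while the 0 dpa sample was the whole ovule. No treatment or transgene is given for any genotype. The labels name no parentage for the genotypes, so nothing is known here of how they are related.

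JKC 725 and 703 (6 arrays) were set against JKC 777, 783 and 737 (9 arrays), and these groupings are called the pair and the trio below. Each holds superior and inferior genotypes, so the division does not follow fibre class. The division was selected on the signals of these same arrays at 19 dpa, so everything between pair and trio is a description and carries no test. Tests were made on what the division leaves untouched. These are JKC 725 against 703, JKC 777 against the mean of 783 and 737, and JKC 783 against 737. The classes were tested too, but pair and trio are unequally shared between them, so that test is not free of the division.

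Signals are MAS5 signals on a linear scale, and differences are on the scale of log2(signal + 4.38). Of 24029 probe sets left after control probe sets were dropped, 17179 reached a mean signal of 40.4 in at least 1 genotype at 19 dpa, and 6850 did not. Only 291 of the 17179, 1.69%, could be given a readable gene name, for 224 genes. A probe set that passed this filter only through the genotypes where it was high had to differ, so the counts between pair and trio do not measure how many transcripts were alike. The same limit applies to calls within pair or trio and between the classes. A probe set whose ID ends in x_at or s_at may report more than 1 gene, for instance the A and D subgenome copies.

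The arrays of the pair also differed from those of the trio in measures of the array and the RNA. The median signal was 90.7 to 119.8 on the 6 arrays of the pair and 68.3 to 87.5 on the 9 of the trio. The log2 ratio of the 3′ to the 5′ control probe set of ubq11, a measure of transcript integrity, was 1.91 to 3.35 in the pair and 0.902 to 1.47 in the trio, with no overlap. The corresponding actin ratio overlapped, at 2.16 to 4.10 against 2.03 to 2.58. At 25 dpa both ratios were higher in the pair with no overlap, at 2.75 to 3.44 against 1.2 to 1.86 for ubq11 and 2.91 to 3.18 against 2.03 to 2.73 for actin. At 6 dpa both had the opposite order, 0.625 to 1.35 against 1.76 to 3.15 for ubq11 and 1.36 to 1.83 against 2.72 to 3.69 for actin. At 0, 9 and 12 dpa the ubq11 ratios overlapped. The actin ratios overlapped at 9 and 12 dpa. At 0 dpa actin was lower in the pair without overlap, at 2.28 to 2.58 against 3.29 to 4.08. The part of these measures in the results was not tested. The correlation of replicates was 0.921 to 0.981, lowest in JKC 703, whose replicate 3 had the highest ubq11 and actin ratios.

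The fibre markers fixed for the check of the tissue (E6, H6L, LTP3, EXPA1, AnnGh1 and TUA10, 7 probe sets) gave a summed signal of 41900 to 50190 in the pair and 77170 to 93980 in the trio, so fibre transcripts were abundant on every array. The 2 seed and embryo markers summed to 5520 to 12700 against 1535 to 7421, the 2 histone probe sets of dividing cells to 6178 to 10060 against 5458 to 7955, and the 5 floral MADS probe sets to 17610 to 20340 against 21160 to 25490. The 2 seed and embryo markers went opposite ways between pair and trio. Lea5-D differed by 2.34 with overlapping arrays, and Lea14-A by -3.34 without overlap. No green tissue marker was nameable. In bulk RNA a smaller share of a cell type and less of a transcript per cell cannot be told apart. The 6 probe sets of seed storage proteins summed to 99.5 to 232 on the arrays of the trio and 107 to 268 on those of JKC 703, but to 786, 4980 and 512 in JKC 725.

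**Figure D1:**
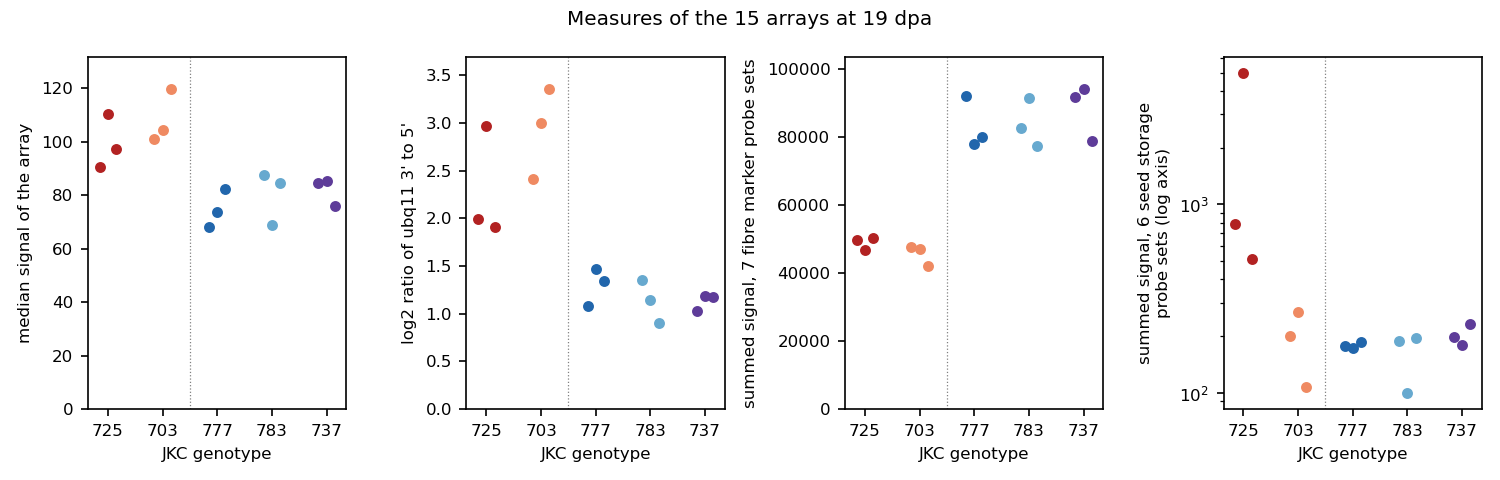
Measures of the 15 arrays at 19 dpa, 1 point per array and 3 per genotype, with a dotted line between the pair and the trio; the axes give the median MAS5 signal, the log2 ratio of the 3′ to the 5′ ubq11 probe set, and the summed MAS5 signal of 7 fibre marker and 6 seed storage probe sets (the last on a log axis). Median signal, ubq11 ratio and fibre marker sum do not overlap between pair and trio, and JKC 725 replicate 2 has the highest seed storage sum, 4980.

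A probe set was counted when the 6 arrays of the pair did not overlap the 9 arrays of the trio and the mean of the genotype means differed by at least 1 on the log2 scale. That held for 4063 of 17179 probe sets, 23.7%, with 2482 (14.4%) higher and 1581 (9.2%) lower in the pair. A difference of at least 4 was found for 146 probe sets higher and 172 lower in the pair. The smallest counted difference was 1.00 and the largest not counted for its size alone was 0.9997. The median difference of all tested probe sets was 0.26 above 0, and it moved to 0.07 after quantile normalization and to -0.11 after median centring, so the balance of directions depends on the scaling. Quantile normalization gave 1752 higher and 1897 lower, and median centring 1413 higher and 2491 lower. Among the nameable probe sets 36 were counted higher (12.4%) and 58 lower (19.9%), and 76 of these 94 were counted the same way under all 3 scalings.

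Of the 3 probe sets for secondary wall cellulose synthesis 2 were counted higher and 1 lower in the pair, beside 14.4% and 9.2% of all. CelA1, a catalytic subunit of secondary wall cellulose synthase, gave signals of 13794, 12350 and 12819 in JKC 725 and 11712, 13174 and 11947 in JKC 703. The same probe set gave 147, 37.7 and 108 in JKC 777, 520, 183 and 905 in JKC 783, and 130, 98.7 and 112 in JKC 737. No array of the trio came near the lowest of the pair, and the difference was 6.24. CTL1, a chitinase-like protein tied to cellulose deposition, stood at 11071 to 12913 in the pair and at 63.0 to 476 in the trio, a difference of 6.41. By contrast, another probe set assigned to CelA1 went the other way, with 221 to 1974 in the pair and 5938 to 9342 in the trio, a difference of -3.14. At 6 dpa the genotype means of this probe set were 3523 and 3442 in JKC 725 and 703 against 13.7 to 26.3 in the trio, so the probe sets may not report the same gene. CelA1 values below, at other days and between genotypes, are those of the first probe set.

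The regulator nst3, a NAC factor that directs secondary wall thickening, was higher in the pair on 2 of its 3 probe sets, and on 1 after quantile normalization or median centring. One of them gave 2370, 2102 and 1816 in JKC 725, 1644, 1553 and 1467 in JKC 703, and 327 to 728 in the trio, a difference of 1.80. Another gave 110 to 237 against 25.4 to 96.7, a difference of 1.66. The remaining nst3 probe set had the highest mean log2 level over all genotypes, though not the highest signals in JKC 703. On it JKC 703 (1198, 1020 and 707) lay close to JKC 783 (978, 645 and 654), and the arrays overlapped at a difference of 1.00. The other 7 NAC probe sets, for NAC2, NAC4, NAC5 and NAC7, had differences of 1.18 to 2.50, and on all of them the arrays of pair and trio overlapped. MYB5 was counted higher on 1 of its probe sets, at 674 to 1100 in the pair and 109 to 289 in the trio.

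The fasciclin-like arabinogalactan proteins, cell surface glycoproteins of the fibre wall, were counted in both directions, 5 of 17 probe sets higher and 6 lower, beside 14.4% and 9.2% of all probe sets, and 4 higher and 7 lower after median centring. FLA7 gave 10683, 10436 and 11374 in JKC 725 and 11207, 12355 and 10582 in JKC 703. In the trio it gave 15.4, 47.7 and 3.59 in JKC 777, 200, 50.3 and 53.6 in JKC 783, and 23.5, 6.90 and 49.4 in JKC 737. FLA7 thus ranged from among the brightest signals to the edge of detection, and its difference of 8.29 was the largest of any nameable probe set. FLA15 (2964 to 6969 against 411 to 803) and FLA2 were also higher in the pair, by 3.24 and 2.11, as were both FLA6 probe sets, by 2.60 and 2.04. All 3 FLA19 probe sets were lower in the pair, with differences of -3.12, -2.79 and -2.52, as were FLA12, 1 of the FLA13 and 1 of the FLA14 probe sets. FLA4, the member with the highest mean, stood at 10879 to 12366 in the pair and 10499 to 16063 in the trio, a difference of -0.23 that turned to 0.12 after quantile normalization.

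**Figure D2:**
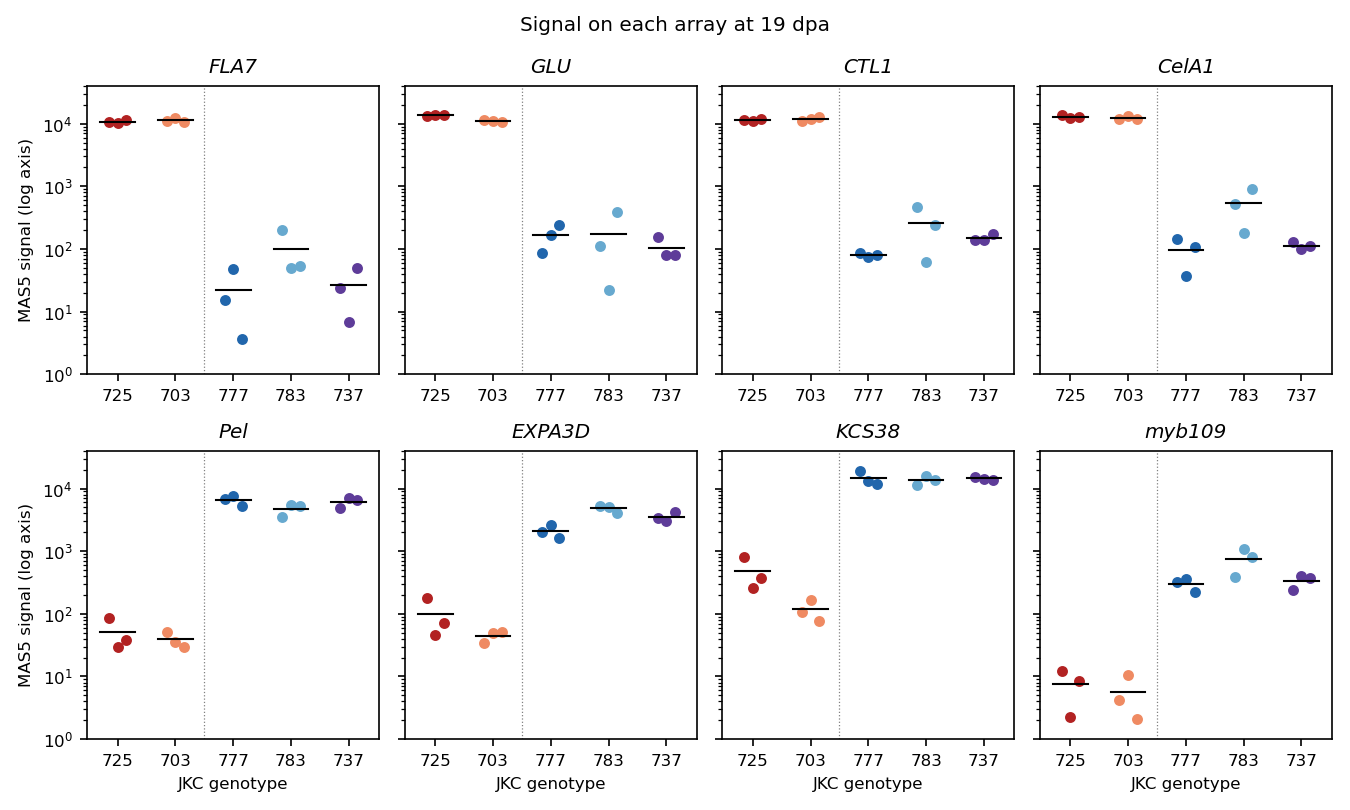
MAS5 signal on each of the 15 arrays at 19 dpa for 8 genes (log axis), 1 point per array, 3 per genotype, with a black bar at the genotype mean and a dotted line between the pair and the trio. FLA7, GLU, CTL1 and CelA1 lie between 10436 and 13794 on the 6 arrays of the pair and between 3.59 and 905 on the 9 of the trio, while Pel, EXPA3D, KCS38 and myb109 lie the other way round.

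Other nameable genes high in the pair were GLU, with 10505 to 13672 against 22.1 to 389 (6.65), and KT, with 2304 to 3054 against 72.6 to 341 (4.14). CCoAMOT2, a caffeoyl-CoA O-methyltransferase of phenylpropanoid synthesis, gave 620 to 1695 against 31.6 to 143 (3.80), and PAP10 and MAT differed by 2.91 and 2.82. Rac9, a small GTPase of the Rop family, differed by 2.79, and KCH1, a kinesin, by 2.29. SusA1, a sucrose synthase, was counted on 1 of 2 probe sets (2.39), whereas Sus1 and susC, the brighter sucrose synthases, lay at 4861 to 8638 and 3394 to 6425 in the pair and at 5583 to 8949 and 3923 to 8410 in the trio. Sucrose synthase supplies the sugar nucleotide for cellulose. The largest gaps lay in probe sets without a name, Ghi.5434.1.A1_at (10.73, at 10920 or more in the pair and 13.8 or less in the trio) and Ghi.6165.4.A1_x_at (9.91).

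Expansins, which loosen the primary wall, were lower in the pair, with 6 of 7 probe sets counted, where 9.2% of all were, and a median difference of -4.30 beside 0.26 for all probe sets. EXPA1, the brightest, gave 1868, 1304 and 1773 in JKC 725, 1224, 1761 and 1119 in JKC 703 and 12640 to 15777 in the trio, a difference of -3.28. EXPA3D gave 181, 46.4 and 70.5 in JKC 725, 33.8, 48.9 and 51.1 in JKC 703 and 1619 to 5302 in the trio on 1 probe set (-5.63), and its other probe set differed by -6.49. EXPA11A differed by -5.31. The probe set not counted, 1 of 3 for EXPA4, gave 11.2 to 27.4 against 25.8 to 101 and was counted lower under both other scalings. On the other 6 probe sets every array of the trio exceeded every array of the pair.

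Pel, a pectate lyase that cuts wall pectin, gave 85.7, 29.7 and 38.2 in JKC 725, 51.5, 35.9 and 29.7 in JKC 703, and 3525 to 7477 in the trio, a difference of -6.93. It is the only pectin gene of the list that passed the filter. PGIPL differed by -3.69. One XTH probe set, for a xyloglucan endotransglucosylase, was counted lower (-2.16), while XTH1 overlapped on both its probe sets.

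Of 7 probe sets for very long chain fatty acid synthesis 4 were counted lower in the pair and 1 higher, beside 9.2% lower and 14.4% higher of all probe sets. KCS38, a 3-ketoacyl-CoA synthase, gave 814, 263 and 367 in JKC 725 and 108, 169 and 77.4 in JKC 703 on 1 probe set, against 11292 to 18945 in the trio, a difference of -5.98. Another KCS38 probe set differed by -3.24, and a weak probe set by 1.17 the other way, a count that was lost after quantile normalization and after median centring. KCS12 gave 316 to 1686 against 10019 to 12934 (-3.78) and KCS45 gave 239 to 851 against 1922 to 4972. The 3 sterol methyltransferase probe sets, SMT1, SMT2-1 and SMT2-2, which act in plant sterol synthesis, were all counted lower, with differences of -1.46, -2.22 and -2.36. ACBP, an acyl-CoA-binding protein, differed by -2.67, and 1 FatB1 probe set was lower as well.

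**Figure D3:**
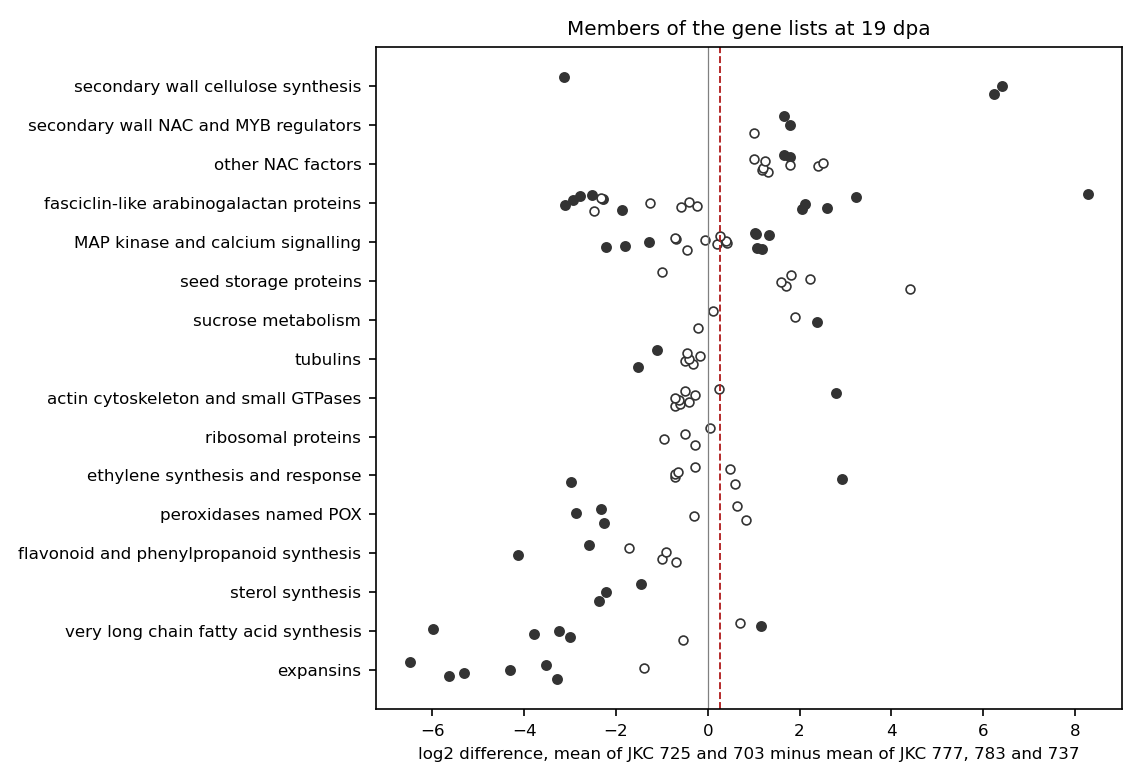
Difference between the pair and the trio (log2, horizontal axis) for each tested probe set of 16 gene lists, 1 point per probe set, filled where the 6 and 9 arrays do not overlap and the difference is at least 1. The grey line is 0 and the dashed red line the median of all tested probe sets, 0.26; expansins lie to the left of 0, while fasciclin-like proteins lie on both sides.

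The fibre MYB factor gene myb109 gave 12.0, 2.22 and 8.50 in JKC 725 and 4.19, 10.6 and 2.06 in JKC 703, all under the filter's 40.4, and 222 to 1074 in the trio. Its difference of -5.33 rests on the offset, being -6.28 without one and -4.25 with an offset of 16. CMDR1 was at 18.6 to 89.7 against 1995 to 3673 (-6.04) and GST, a glutathione S-transferase, was lower on 1 probe set at 280 to 1198 against 7251 to 11387 (-4.11), its other 2 overlapping. Aux6, of the auxin list, differed by -4.34, and Aux2 by -2.03. In flavonoid synthesis CHS6, a chalcone synthase, differed by -4.13 and DFR, dihydroflavonol reductase, by -2.59 (860 to 1568 against 5220 to 10117), while CHS3, CCR1 and 1 CHS2 probe set overlapped and the other CHS2 probe set, at -0.99, was under the minimum. Among ethylene genes ACO1, which makes ethylene, was higher on 1 probe set (2.93) and ACS3, which makes its precursor, was lower (-2.99). The widest gaps of unnamed probe sets in this direction were those of GhiAffx.33381.1.S1_s_at (-8.12) and Ghi.3907.1.S1_at (-7.83).

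Of 7 probe sets for abundant fibre transcripts 2 were counted lower, EXPA1 and 1 of LTP3, and 5 after median centring. Of all probe sets 9.2% were counted lower and 14.4% higher as reported. E6, a fibre protein, gave 10996, 10147 and 10653 in JKC 725, 10250, 10970 and 7383 in JKC 703 and 16258 to 22651 in the trio, with no overlap but a difference of -0.91, under the minimum. The annexin AnnGh1 differed by -0.71, and after median centring both were counted, at -1.28 and -1.08. The 3 TUA10 alpha-tubulin probe sets differed by -0.31, -0.49 and -0.45, the first of which turned to 0.06 after quantile normalization, and the beta-tubulins BTub4 (-1.52) and BTub1 (-1.10) were counted, BTub1 not after quantile normalization. LTP3 differed by -3.06 on 1 probe set and -0.39 on the brighter one. The ribosomal protein gene RPL37A lay at 3804 to 4670 in the pair and 3336 to 4725 in the trio. Of 16 MAP kinase and calcium signalling probe sets 5 were counted higher and 3 lower, but 0 higher and 5 lower after median centring, and 1 and 3 after quantile normalization, so no direction is given for that list. Of the 6 POX peroxidase probe sets 3 were counted lower, where 9.2% of all were, among them POX9 (-2.33). No probe set of the lists of HD-ZIP, TCP and WRKY factors (4 tested), seed storage proteins (6) or dividing cell markers (2) was counted in either direction under any of the 3 scalings. Of 5 floral MADS and 4 ribosomal protein probe sets 0 were counted as reported, but MADS-9 was counted lower under both other scalings and RPS16 after median centring.

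The same probe sets were followed to the other days, which the count at 19 dpa did not use. The 2482 probe sets higher in the pair at 19 dpa had median log2 levels of 8.37 and 8.55 in JKC 725 and 703 and of 6.29, 6.50 and 6.54 in JKC 777, 783 and 737. At 25 dpa these medians were 8.15 and 8.21 against 7.12, 6.67 and 6.86, and at 12 dpa 7.16 and 7.08 against 6.36, 6.33 and 6.25. The order at 19 dpa is fixed by how the probe sets were chosen, and the pair also stood above the trio at 25 and 12 dpa. The 1581 probe sets lower in the pair had medians of 7.64 and 7.45 against 9.95, 9.84 and 9.80 at 19 dpa, and of 9.96 and 9.91 against 9.71, 9.66 and 9.61 at 6 dpa.

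**Figure D4:**
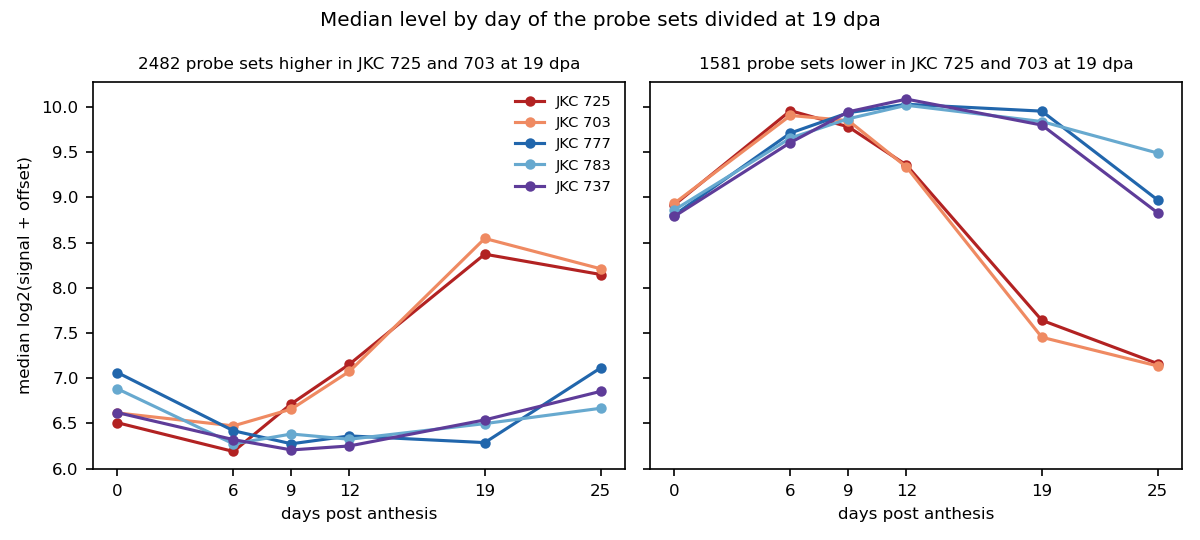
Median level, log2(signal + 4.38), of the 2482 probe sets higher and the 1581 lower in the pair at 19 dpa, at each day post anthesis, 1 line per genotype. At 6 dpa the 5 lines of the higher set lie between 6.19 and 6.47; at 19 dpa JKC 725 and 703 lie at 8.37 and 8.55 against 6.29 to 6.54 for the others.

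Counted by the same rule at each day, 41.7% of the higher set was again higher at 25 dpa, where 10.5% of all probe sets were, and 57.4% of the lower set was again lower, where 7.61% of all were. At 12 dpa the shares were 15.6% (all probe sets 5.13%) and 26.1% (4.41%), and at 9 dpa 6.04% (3.68%) and 9.04% (2.42%). At 6 dpa they were 4.47% (5.31%) and 5.06% (4.01%), and at 0 dpa, in whole ovules, 2.42% (2%) and 1.64% (2.67%). Before 25 dpa members of both sets went both ways. At 12 dpa 387 of the higher set were counted higher in the pair and 9 lower. Of the lower set 412 were then lower and 49 higher, where 5.13% of all were higher. At 9 dpa 150 of the 2482 higher-set probe sets were counted higher in the pair and 22 lower. Of the 1581 lower-set probe sets 143 were counted lower that day and 116 higher. At 6 dpa 233 of the lower set were counted higher, where 5.31% of all were, and 80 lower. Of the higher set 111 were then higher and 82 lower. At 0 dpa 135 of the higher set were counted lower, where 2.67% of all were, and 60 higher. Of the lower set 26 were then lower and 30 higher. The ubq11 and actin ratios, given above, also divided pair and trio at 25 dpa, and their part in the recurrence was not tested. Across probe sets, the mean profile of JKC 725 at 19 dpa correlated with JKC 777, 783 and 737 at 0.921, 0.872 and 0.911 at 25 dpa and at 0.820, 0.841 and 0.833 at 19 dpa. The profile of JKC 703 at 19 dpa correlated with them at 0.884, 0.842 and 0.871 at 25 dpa and at 0.788, 0.807 and 0.809 at 19 dpa. The gap between the days was narrowest for JKC 783. These are correlations across probe sets of group means, which share probe affinities, and the probe sets are not independent replicates.

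Single genes differed in how the trio stood at 25 dpa. CTL1 had genotype means of 8423 in JKC 777, 903 in JKC 783 and 12290 in JKC 737 at 25 dpa, after 80.0, 261 and 151 at 19 dpa. FLA7 stood at 3062, 159 and 3320 at 25 dpa, so JKC 783, with 2 arrays that day, was far below JKC 777 and 737 for both genes. GLU likewise stood at 3784, 308 and 7687. Pel in the trio was at 1072, 760 and 787 at 25 dpa after 6499, 4751 and 6108 at 19 dpa, while KCS38 on its brighter probe set was still at 13760, 13650 and 13790.

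Within the pair, superior JKC 725 and inferior JKC 703 were compared with limma's moderated test, adjusted by Benjamini-Hochberg over 17179 probe sets, with a call at an adjusted p under 0.05 and a difference of at least 1. This called 848 probe sets (4.94%), 375 higher (2.18%) and 473 lower (2.75%) in JKC 725. Of the nameable ones 15 were higher and 10 lower. Among nameable probe sets, seed storage protein genes gave the largest differences, with 4 of 6 probe sets called higher in JKC 725 and 0 lower.

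The vicilin gene vicB_At gave 437, 3711 and 205 in JKC 725 and 48.6, 47.3 and 7.72 in JKC 703, a difference of 4.45 ± 0.95 (SE, 3 arrays each, limma adjusted p = 0.000556). LEGB, a legumin gene, gave 41.5, 460 and 45.7 against 0.72, 7.38 and 0.52 (3.94 ± 0.83), though another LEGB probe set had a difference of -0.85. MatP7 gave 166, 348 and 113 against 26.0, 34.9 and 15.2 (2.75 ± 0.44), and Mat5-D differed by 2.30 ± 0.77. Replicate 2 was the highest of JKC 725 for all 4 genes, and each array of JKC 725 stood above each of JKC 703 on these probe sets. Without JKC 725 replicate 2 the call of Mat5-D was lost, and without replicate 2 of JKC 725, replicate 3 of JKC 703 and replicate 2 of JKC 783 those of vicB_At and LEGB were lost too. CPA-FAS-2, a cyclopropane fatty acid synthase, gave 75.5, 568 and 33.0 against 15.1, 27.4 and 27.8 and lost its call without JKC 725 replicate 2.

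Of 7 probe sets for very long chain fatty acid synthesis 2 were called higher in JKC 725 and 0 lower. For flavonoid and phenylpropanoid synthesis 2 of 6 were called higher and 0 lower, where 2.18% of all were higher. The median differences of these lists were 0.14 and -0.04, so neither list shifted as a whole. Aux6 gave 680, 393 and 534 in JKC 725 and 147, 153 and 60.9 in JKC 703, a difference of 2.18 ± 0.30 (limma adjusted p = 2.09e-07). KCS38 differed by 1.89 ± 0.28, GST by 1.71 ± 0.28 and KCS12 by 1.65 ± 0.36, on the probe sets given above. CCR1, cinnamoyl-CoA reductase, gave 1443 to 2197 against 262 to 946, and CHS3 3267 to 3970 against 1217 to 1957. The arrays of JKC 725 and 703 did not overlap for any of these 6 genes.

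Called lower in JKC 725 were GID1-4, of the gibberellin receptor family (30.1, 28.7 and 22.5 against 104, 46.5 and 122, limma adjusted p = 1.7e-06), and GAE2, a UDP-glucuronate epimerase of pectin synthesis (234, 99.9 and 210 against 492, 729 and 454, -1.66 ± 0.27). Aux2 (444 to 454 against 816 to 2091) was lower as well, as was 1 FLA13 probe set, whose weak signals overlapped (0.60 to 3.47 against 1.59 to 47.6). The peroxidase genes pod7 and POX10 differed by -2.56 and -1.83, but replicate 2 of JKC 703 gave 148 and 25.1 beside 900 and 2472, and 93.7 and 172, in the other replicates. The secondary wall genes that were high in the pair did not pass the test here: CelA1 differed by 0.08 ± 0.44, CTL1 by -0.06 ± 0.42 and FLA7 by -0.07 ± 0.72. The number of calls in this comparison was 506 without JKC 703 replicate 3 and 1165 without JKC 703 replicate 2.

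Within the trio, superior JKC 777 differed from the mean of inferior JKC 783 and 737 on 404 probe sets (2.35%), 144 higher (0.838%) and 260 lower (1.51%). Of the 291 nameable probe sets 6 were among them, a share near that of all probe sets. CHS6 gave 527, 454 and 819 in JKC 777, 89.4, 63.3 and 92.8 in JKC 783, and 84.0, 128 and 88.0 in JKC 737, a difference of 2.65 ± 0.46 (SE, 3 against 6 arrays, limma adjusted p = 5.22e-05). CBP2 (30.3 to 38.7 against 99.2 to 331) and CBP3 (13.0 to 35.5 against 61.2 to 339) were lower in JKC 777, with differences of -2.19 and -2.30. Each of these 3 genes kept JKC 777 apart from all 6 other arrays of the trio.

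GEPH (-2.39 ± 0.62), CelA1 (-1.36 ± 0.38) and EXPA3D (-1.29 ± 0.40) were called lower in JKC 777 too, with signals of GEPH and CelA1 low in the whole trio. All 3 lost the call when only the 15 arrays at 19 dpa were fitted, and that of CelA1 was lost without JKC 777 replicate 2 (-0.81). The 2 inferior genotypes JKC 783 and 737 differed on 261 probe sets (1.52%), 138 higher (0.803%) and 123 lower (0.716%) in JKC 783.

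Higher in JKC 783 than in JKC 737 were 2 secondary wall genes. FLA6 gave 7389, 6662 and 5203 in JKC 783, 1372, 332 and 3213 in JKC 737 and 1739, 1500 and 548 in JKC 777, a difference between JKC 783 and 737 of 2.48 ± 0.58 (SE, 3 arrays each, limma adjusted p = 0.00645). CelA1, at 520, 183 and 905 against 130, 98.7 and 112, differed by 1.93 ± 0.44, and the small GTPase gene Rac13 (1397 to 1612 against 631 to 824) by 1.00 ± 0.28. JKC 783 thus stood highest of the trio for FLA6 and CelA1 at 19 dpa, while at 25 dpa its CelA1 mean of 4955 was below the 12330 and 18310 of JKC 777 and 737.

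Lower in JKC 783 were cdn1-C4, a cadinene synthase of gossypol synthesis, and several regulators. The former gave 71.4, 353 and 229 in JKC 783 against 2827, 3476 and 1544 in JKC 737, a difference of -3.75 ± 0.62 (limma adjusted p = 3.27e-05), and JKC 777 lay between them at 1342, 850 and 1305. NAC5 (7.49 to 44.3 against 266 to 806), NAC4 and MYB differed by -4.06, -3.15 and -2.62, ACO1 by -3.74 and the late embryogenesis gene Lea5-D by -2.46. In JKC 777 NAC5 was at 20.0 and 32.3 in replicates 1 and 2 but at 320 in replicate 3, and ACO1 at 119, 575 and 2182. Every gene named for JKC 783 against 737 lost its call in at least 1 alternative, and ACO1, NAC5, NAC4, MYB and Lea5-D did so without JKC 783 replicate 2. At 25 dpa the same comparison called 2038 probe sets, 11.9%, against 2.06% for JKC 725 minus 703 and 3.24% for JKC 777 that day.

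**Figure D5:**
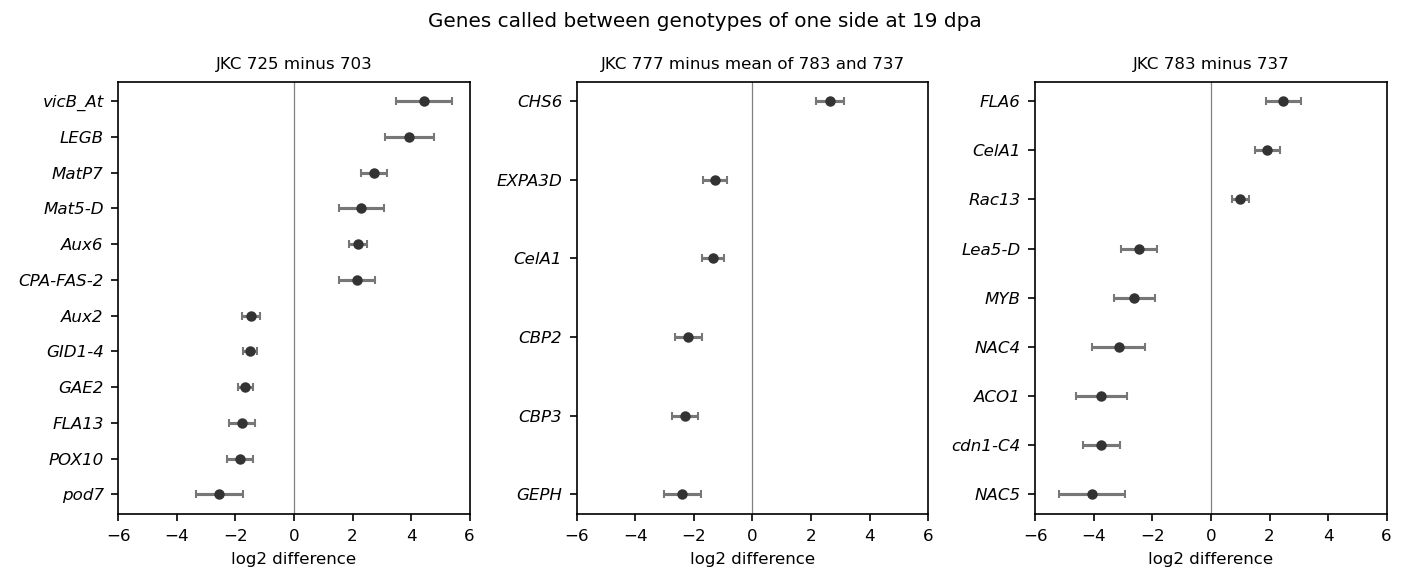
Differences between genotypes within the pair and within the trio at 19 dpa (log2, horizontal axis) for the nameable genes with the largest called differences, with points at the estimate and bars of 1 SE from limma. Seed storage genes lead on the left, at 4.45 for vicB_At, CHS6 alone is higher in JKC 777 in the middle, and FLA6, CelA1 and Rac13 are higher in JKC 783 on the right.

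Taking the 3 comparisons as 1 F test, 1532 probe sets (8.92%) differed within pair or trio. Of these, 441 were also among the 4063 counted between pair and trio, 28.8% of the former and 10.9% of the latter. Probe sets on which 1 genotype stood beyond the other 12 arrays, with the nearest genotype mean at least 1 away, were most numerous for JKC 703, with 215 above (1.25%) and 190 below (1.11%). JKC 725 had 91 (0.53%) and 87 (0.506%), JKC 777 35 (0.204%) and 97 (0.565%), JKC 783 16 (0.0931%) and 21 (0.122%), and JKC 737 29 (0.169%) and 47 (0.274%). Among nameable genes JKC 703 stood below the rest for KCS12, KCS38, GST, Aux6, CCR1 and CHS3, and JKC 777 stood above it for CHS6.

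The classes were compared over genotypes, 2 superior against 3 inferior, because class is a property of a genotype. Pair and trio are unequally shared between the classes, so part of their difference enters these counts. Limma on the 5 genotype means called 0 of 17179 probe sets (0%, in either direction), with 54 at an unadjusted p under 0.05, 14 higher and 40 lower in the superior genotypes. With arrays counted as replicates 1980 were called, a count that treats arrays of a genotype as independent of it. With pair and trio as a term in the fit on genotype means 3 were called, but that term is the division selected on these same arrays.

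Probe sets called the same way in JKC 725 against 703 and in JKC 777 against 783 and 737 were also counted, since those comparisons share no array. There were 38 (0.221%), 12 higher (0.0699%) and 26 lower (0.151%) in the superior genotypes, and 18 others were called in opposite directions. None of the 38 could be named. Gra.822.2.S1_x_at gave 11.1, 17.4 and 26.7 in JKC 725 and 1.03 to 2.22 in JKC 777. In the inferior genotypes it gave 1225, 1344 and 1125 in JKC 703, 464, 813 and 806 in JKC 783 and 432, 676 and 631 in JKC 737. All 6 superior arrays thus lay at 26.7 or less and all 9 inferior ones at 432 or more, and GhiAffx.37193.1.A1_s_at was divided likewise, at 2.09 to 19.6 against 281 to 614. These 2 were among the 3 called with pair and trio as a term, at limma adjusted p = 0.0169 for each. Because that term was selected on the signals of these same arrays, this p-value is not a free test of class.

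GhiAffx.61776.1.S1_at was high in the superior genotypes, at 165 to 249 in JKC 725 and 219 to 223 in JKC 777 against 4.19 to 34.9 on the 9 inferior arrays. The other probe set with a large class difference upward, Ghi.728.2.S1_at, was at 127 to 230 in JKC 725 and 0.71 to 1.05 in JKC 703, yet inferior JKC 783, at 493 to 653, exceeded superior JKC 777, at 183 to 329. These 4 probe sets had the same direction in both comparisons on all 6 days. Of the 38, both comparisons had the direction of 19 dpa for 25, 27, 30, 24 and 29 at 0, 6, 9, 12 and 25 dpa.

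The difference between (JKC 725 minus 703) and (JKC 777 minus the mean of 783 and 737) was tested with arrays as replicates. The pair holds a single genotype of each class and the trio a single superior one. A dependence of class on the grouping therefore cannot be told apart from differences of single genotypes. The difference between the comparisons was called for 957 probe sets (5.57%), 496 higher (2.89%) and 461 lower (2.68%), of which 31 were nameable. GID1-4 was called lower in JKC 725 than in 703, as given above, and differed by 0.94 ± 0.20 between JKC 777 and the others, a difference between the comparisons of -2.45 ± 0.30 (limma adjusted p = 1.73e-08). CHS6, higher in superior JKC 777, differed by -1.13 ± 0.53 between JKC 725 and 703, where the 6 signals were 28.1 or less.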

How the data were processed

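Fibre RNA was measured on Affymetrix Cotton Genome arrays, 1 array per sample. The authors deposited MAS5 signal intensity values, linear and, per the submitters' processing notes, made with MAS5; each of the 15 arrays had a trimmed mean of 500.1 to 500.2. Array values have no read depth, and the number of arrays limits the precision.

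The 103 control probe sets were left out, 4.38 (the 10th percentile) was added before log2, and probe sets under the 40th percentile of signal (40.4) in all 5 genotypes were not tested. All 89 arrays entered 1 limma model (version 3.58.1, R 4.3.3) with a term for each of the 30 genotype and day groups. Its prior variance followed the mean level, and p-values were adjusted by Benjamini-Hochberg. The class comparison used the 5 genotype means. On data simulated for JKC 725 minus 703, 82 of 100 changes of 1.5 and 98 of 100 of 3 on the log2 scale were called. Both sizes of change were in 1 simulated data set of 17179 probe sets, which gave 2 false calls among the unchanged ones. These figures describe simulated data only and do not give the reliability of the calls on the real arrays. With 1 real array left out, the calls for that comparison ran from 506 (without JKC 703 replicate 3) to 1165 (without JKC 703 replicate 2).

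The members and gene lists were chosen with earlier results of these data known. Genes named within pair or trio are those with the largest called differences in each direction that have a readable symbol, taken from a platform annotation and RefSeq; 697 probe sets had 1 gene, 46 had several, and the others are unnamed here. Genes called but smaller than these, and unnamed probe sets with the widest gaps, were named after their values were seen. Whether the labelled biological replicates came from separate plants or plots is not given in the sources used here. Same-numbered replicates did not deviate together: their 30 correlations ran from -0.37 to 0.29, 4 of them over 0.1.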

Additional observations from a re-analysis of the deposited data

Results flagged for a closer look

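The difference between the class comparisons, (JKC 725 minus 703) minus (JKC 777 minus the mean of 783 and 737), was called for 957 probe sets by limma. Each result here was picked out because the difference between superior and inferior genotypes was not the same in the pair and in the trio by that test. Arrays were its replicates, so class cannot be told apart from single genotypes. Seed storage genes had the largest positive values, vicB_At at 4.83, LEGB at 4.55 and MatP7 at 3.05, and CPA-FAS-2 followed at 2.69, Aux6 at 2.19 and Ssh2 at 2.08. Negative values were found for CHS6 (-3.78), the peroxidases pod10 (-3.24) and pod7 (-3.19), GID1-4 (-2.45), CPA-FAS-1 (-2.32) and POX10 (-1.96). Replicate 2 of JKC 725 was the highest for vicB_At, LEGB, MatP7 and CPA-FAS-2, and without it vicB_At and CPA-FAS-2 lost the call, at 3.63 and 1.56. Of the 12 genes 5 kept the call in every alternative run, and the other 7 lost it in at least 1.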

How the results depend on the processing

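No counted or called value among those named changed sign under the alternatives run, while some small differences that were not counted did. After quantile normalization these included FLA4, 1 TUA10 probe set, susC and XTH1, and after median centring Sus1 and RPL37A. Fitting only the 15 arrays at 19 dpa gave fewer calls: 752 for any difference within pair or trio, 514 for JKC 725 minus 703, 221 for JKC 777, 140 for JKC 783 minus 737, 432 for the difference between class comparisons and 22 for the same direction in both. With the replicate block on those arrays the counts were 690, 461, 204, 130, 355 and 19, although the numbers did not pair the samples. Leaving out 3 arrays together, JKC 725 replicate 2, JKC 703 replicate 3 and JKC 783 replicate 2 (chosen after their values were seen), gave 558 for JKC 725 minus 703 and 586 for the difference between class comparisons. For class, a term for pair and trio gave 3 calls and arrays as replicates 1980. Leaving out 1 replicate each gave 3997 to 4407 counts between pair and trio, 1240 to 1817 within them, 506 to 1165 for JKC 725 minus 703 (without JKC 703 replicate 3 and 2), 328 to 434 for JKC 777, 192 to 311 for JKC 783 minus 737, 685 to 1193 for the difference between class comparisons, 27 to 42 for the same direction, and 0 for class. Median centring gave 506 higher and 345 lower for JKC 725 minus 703 and 203 and 205 for JKC 777, and quantile normalization 536 and 466, and 181 and 216. Of 12 named genes for JKC 725 minus 703, 4 kept the call in every alternative, as did 3 of 6 for JKC 777 and 0 of 9 for JKC 783 minus 737. The causes were not tested. Low signals limit the log2 differences of genes near the floor: with no offset FLA7 differed by 8.62 and CHS6 by -5.40, and with an offset of 16 by 7.77 and -3.04.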
